A study of Mus musculus with 12 samples.

Results

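The genes examined here mark the oligodendrocyte lineage, the glial cells that ensheathe axons in myelin. They comprise 7 genes, which are Olig1, Olig2, Nkx2-2, Pdgfra, Cspg4, Mbp and Cnp, of the 19057 genes named in the probe annotation of the array. All probes that carry one of these symbols were taken, which gave 14 of the 45281 probes. A probe was tested if its detection p-value, the probability of such a signal from a probe with no target, was under 0.01 on at least 1 array, and 9 of the 14 probes were among the 19652 tested. Each of the 7 genes had at least 1 tested probe, among 10662 tested genes with a symbol. Total RNA of mouse embryonic cortex was hybridized to 12 Illumina BeadChips, on which probes bound to beads report transcripts as fluorescence, 4 for each embryonic day, E12.5, E15.5 and E18.5. The labels give no genotype, strain or treatment for these samples. By the study's methods its mice had a C57BL/6J background, and the stages differ by age. The RNA of each stage came from 4 embryos, and it is not stated whether each array holds 1 embryo or whether litters were shared, so the p-values given here reflect the spread among these samples, which may be technical. The samples are whole cortical tissue, in which fewer cells of a type and less RNA per cell cannot be told apart.

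Oligodendrocyte precursors arise from ventricular zone progenitors in successive waves, first from the ventral telencephalon and later from the cortex itself. The basic helix-loop-helix factors Olig1 and Olig2 and the homeodomain factor Nkx2-2 specify the lineage and drive its maturation, and the receptor Pdgfra and the proteoglycan Cspg4 (NG2) mark dividing precursors. Mbp and Cnp encode proteins of myelin, which is laid down in the mouse cortex only after birth, although Mbp also gives rise to golli transcripts that neurons make before birth.

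In the RefSeq annotation of GRCm38.p6, Olig2 lies at chr16:91225550-91228677 and Olig1 at chr16:91269769-91271939. Between them are 41091 bases with 0 annotated genes. Pdgfra lies at chr5:75151322-75198206, Cspg4 at chr9:56865104-56899870, Nkx2-2 at chr2:147176485-147195434 and Cnp at chr11:100574909-100591875. RefSeq promoter sequences, from 250 bases before to 50 bases after the start site, were matched for 5 of the 7 genes, all except Olig1 and Mbp. The windows of Nkx2-2 and Pdgfra lie wholly within the spans given above for these genes. Their start sites are therefore internal to the annotated genes. The 4 printed here belong to 3 genes that were higher at E18.5 (Olig2, Nkx2-2, Pdgfra) and to 1 that passed no test (Cnp). Capitals mark each E-box, the letters CANNTG to which basic helix-loop-helix factors such as Olig1 and Olig2 bind, and Nkx2-2 is read on the minus strand.
Olig2 promoter, chr16:91225300-91225599, plus strand: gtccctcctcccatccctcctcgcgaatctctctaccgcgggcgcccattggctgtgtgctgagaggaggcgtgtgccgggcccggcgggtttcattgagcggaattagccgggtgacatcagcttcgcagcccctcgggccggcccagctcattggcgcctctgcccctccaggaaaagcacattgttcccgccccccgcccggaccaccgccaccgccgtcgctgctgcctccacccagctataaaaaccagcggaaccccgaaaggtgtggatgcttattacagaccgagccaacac
Nkx2-2 promoter, chr2:147186353-147186652, minus strand: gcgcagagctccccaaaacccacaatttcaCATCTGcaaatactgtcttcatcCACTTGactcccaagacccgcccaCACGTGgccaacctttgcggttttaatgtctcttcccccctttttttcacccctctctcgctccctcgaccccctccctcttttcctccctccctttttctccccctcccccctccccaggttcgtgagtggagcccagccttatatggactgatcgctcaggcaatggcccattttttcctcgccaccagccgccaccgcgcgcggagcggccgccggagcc
Pdgfra promoter, chr5:75152001-75152300, plus strand: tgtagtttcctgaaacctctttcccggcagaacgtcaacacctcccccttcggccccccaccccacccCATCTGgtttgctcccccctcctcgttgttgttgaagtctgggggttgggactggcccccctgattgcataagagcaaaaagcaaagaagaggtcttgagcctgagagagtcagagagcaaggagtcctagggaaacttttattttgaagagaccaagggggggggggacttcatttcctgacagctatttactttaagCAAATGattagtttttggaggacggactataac
Cnp promoter, chr11:100574689-100574988, plus strand: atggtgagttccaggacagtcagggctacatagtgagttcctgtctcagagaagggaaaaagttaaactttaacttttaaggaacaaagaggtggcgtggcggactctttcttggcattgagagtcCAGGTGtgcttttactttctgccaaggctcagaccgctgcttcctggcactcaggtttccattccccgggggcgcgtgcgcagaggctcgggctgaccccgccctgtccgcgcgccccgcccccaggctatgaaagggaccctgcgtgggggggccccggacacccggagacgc

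Positions are counted from the start site of each window. The Nkx2-2 promoter held 3 E-boxes, CATCTG beginning at position -220, CACTTG at -197 and CACGTG at -173. Pdgfra held 2, CATCTG at -182 and CAAATG at 18 bases into the transcribed part, and Cnp held 1, CAGGTG at -124. Olig2 and Cspg4 held 0. Of 32851 promoters of the same length, 72.3% held at least 1 E-box on either strand, so its presence was the common case. Among the 5 promoters, 0 held CAGCTG or CATATG, which are both forms of the E-box (in 16.3% and 3.9% of all promoters). ACAAT and ACAAAG, letters of sites bound by Sox proteins, were searched on both strands. ACAAT occurred once each in Olig2, Cspg4 and Nkx2-2 (31.0% of all promoters held it) and ACAAAG once in Cnp (18.7%).

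Over the 12 arrays, the median signal was 86.1 to 99.3, and 15227 to 17472 probes were detected per array. E12.5 replicate 4 stood apart from the other E12.5 arrays. On the first principal component, which held 78.9% of the variance, it lay at -53.4, whereas E12.5 replicates 1 to 3 lay at -91.7 to -88.3 and E15.5 arrays at -8.89 to 7.40. It correlated with E15.5 arrays at a mean r of 0.970, and replicates 1 to 3 did so at 0.926 to 0.935. The results of the 7 genes, and of the genes with the largest changes in each list, were therefore also computed without this array. Of 8 tested cortical markers, 7 or 8 were detected on each E12.5 array, 6 to 8 on each E15.5 array and 7 on each E18.5 array.

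Olig1, a transcription factor that promotes myelination, showed the largest fitted rise of the 7 genes in each comparison of stages. It rose in both intervals and most of the rise came after E15.5. The deposited signals of its probe (ILMN_2760105) were 87.1, 88.9, 86.4 and 115 at E12.5, 142, 298, 212 and 225 at E15.5, and 5041, 5329, 4556 and 4806 at E18.5. The 3 stages did not overlap, and the E15.5 arrays lay much closer to E12.5 than to E18.5. On the normalized log2 scale the means were 5.18 ± 0.50 at E12.5, 7.25 ± 0.63 at E15.5 and 12.09 ± 0.07 at E18.5 (SD, n = 4 arrays each). Olig1 at E18.5 was 28.6-fold above E15.5 (log2 fold change 4.84, SE 0.28, limma adjusted p = 1.71e-08), and at E15.5 it was 4.20-fold above E12.5 (log2 fold change 2.07, SE 0.28, limma adjusted p = 3.94e-05). Between E12.5 and E18.5 the log2 fold change was 6.91 (SE 0.28, limma adjusted p = 1.71e-10), of which 30.0% fell in the first interval. The rise after E15.5 exceeded that before it by 2.77 (SE 0.49, limma adjusted p = 0.000936).

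At E12.5 Olig1 was detected on 1 array of 4, replicate 4, at a log2 value of 5.94, while replicates 1 to 3 lay at 4.87 to 4.99. This was the array that stood apart. Without it, E12.5 gives only a bound, in which the mean of the later stage is set against the E12.5 mean of, per array, the higher of the probe's own value and the lowest value among detected probes. The same kind of bound is given wherever a stage did not detect a probe. On that footing, Olig1 at E15.5 exceeded E12.5 by at least 2.75-fold, and Olig1 at E18.5 exceeded it by at least 78.6-fold. These bounds hold for background-corrected values. Without background correction the fitted log2 differences were 1.15 for E15.5 against E12.5 and 5.48 for E18.5 against E12.5, and Olig1 was called higher under all 26 alternatives. At E15.5 the spread was also wide, with replicate 1 at 6.47 and replicate 2 at 8.01.

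**Figure D1:**
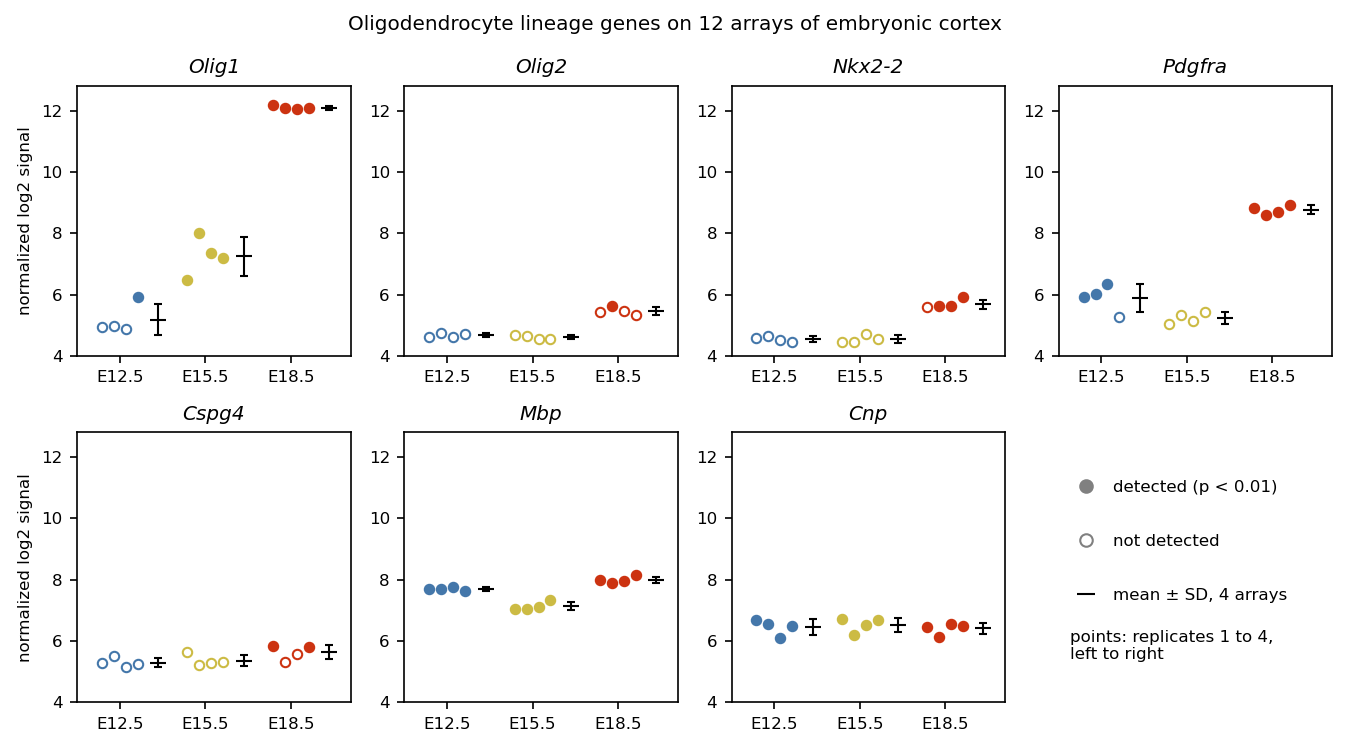
Normalized log2 signal of the representative probe of each gene (vertical axis) on the 4 arrays of each stage (horizontal axis), with the mean and SD beside the points; filled points were detected at p under 0.01 and open points were not. Olig1 ends at 12.04 to 12.19 at E18.5 and Pdgfra at 8.59 to 8.94, Olig2 and Nkx2-2 are detected only at E18.5, Mbp is lowest at E15.5, and Cspg4 and Cnp overlap between stages.

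Olig2, required for the specification of oligodendrocytes, gave a signal near background. Its single probe (ILMN_2724709) read 77.2, 81.9, 78.3 and 78.9 at E12.5, 80.3, 79.9, 75.0 and 76.0 at E15.5, and 116, 133, 116 and 112 at E18.5. All E18.5 arrays lay above all earlier ones, and the earlier stages overlapped. The probe was detected on 1 of the 12 arrays, E18.5 replicate 2, and the other E18.5 arrays had detection p-values of up to 0.0331. The test passed for E18.5 against E15.5 (limma adjusted p = 1.80e-06) and against E12.5 (limma adjusted p = 1.27e-06), but not for E15.5 against E12.5 (limma adjusted p = 0.551). No fold change is given, because the E18.5 mean of 5.47 ± 0.13 (SD, n = 4) did not exceed the lowest detected values on the earlier arrays. Without E18.5 replicate 2 the probe was not detected on any array and was not tested.

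Nkx2-2, a repressor that acts in maturing oligodendrocytes, passed the test at E18.5 alone, also at a signal near background. Signals of the tested probe (ILMN_1221619) were 76.1, 79.1, 72.4 and 65.0 at E12.5, 67.1, 69.6, 82.1 and 76.1 at E15.5, and 123, 132, 123 and 136 at E18.5. The E18.5 arrays stood above all others without overlap, and 3 of them (replicates 2 to 4) were detected, whereas 0 of 8 earlier arrays were. Nkx2-2 passed the test and the 2-fold minimum for E18.5 against E15.5 (limma adjusted p = 4.03e-07) and against E12.5 (limma adjusted p = 1.30e-07). The earlier stages gave only bounds, and these were under 1, so that no fold change is given. The fitted log2 differences were 1.15 and 1.14, and without background correction they were 0.65 and 0.63, below the minimum fold. The second Nkx2-2 probe (ILMN_3129849) was not detected on any array, with signals of 60.3 to 84.8.

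Pdgfra, the receptor for platelet-derived growth factor A that keeps precursors dividing, was highest at E18.5 by a wide margin. Its tested probe (ILMN_1235932) read 111, 115, 133 and 94.7 at E12.5, 91.5, 101, 94.7 and 109 at E15.5, and 583, 577, 542 and 625 at E18.5. No E18.5 array overlapped an earlier one, and the 2 earlier stages overlapped each other. Pdgfra was detected on 3 arrays at E12.5 (replicates 1 to 3), 0 at E15.5 and 4 at E18.5. The E18.5 level was at least 7.815-fold above E15.5 (limma adjusted p = 7.95e-09) and 7.32-fold above E12.5 (log2 fold change 2.87, SE 0.19, limma adjusted p = 9.80e-09). The latter log2 fold change was 2.66 without E12.5 replicate 4. Without background correction the log2 differences were 2.30 from E15.5 and 1.997 from E12.5, so the size depends on that step, while Pdgfra was called higher in both comparisons under all 26 alternatives. The change after E15.5 exceeded the change before it (limma adjusted p = 2.71e-06), by a fitted value of 4.18 on the log2 scale (SE 0.32) that rests on an E15.5 level no array detected.

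The E15.5 mean of Pdgfra, 5.24 ± 0.19, was below the E12.5 mean of 5.89 ± 0.46 (SD, n = 4 arrays each). Since no E15.5 array was detected, the difference is a bound of at least 1.067-fold lower, with an adjusted p of 0.00858 (limma). That p passed 0.01 under 8 of 26 alternatives, and among the fits that left out 1 array it passed only without E12.5 replicate 4 (adjusted p = 9.27e-05), while the other 11 gave 0.0101 to 0.0279. Cells of the meninges and vessels can also make Pdgfra. The summed normalized signal of 7 tested pericyte markers was 986 to 1424 on E12.5 arrays, 837 to 921 on E15.5 arrays and 879 to 1045 on E18.5 arrays. E12.5 replicate 3, the array with the highest Pdgfra value before E18.5, also had the highest pericyte sum, and the part of this in the result was not tested. At E12.5 the sum was carried by Notch3, which progenitors also express, with log2 means of 9.17 ± 0.42, 7.36 ± 0.20 and 6.48 ± 0.04 in order of age (SD, n = 4 arrays each). Rgs5, Kcnj8, Abcc9 and Higd1b were not detected on any E12.5 array, and the mean log2 value of the 7 markers was 5.99 to 6.21 on E12.5 arrays, its lowest, 6.48 to 6.75 on E15.5 arrays and 6.72 to 6.94 on E18.5 arrays. Of 11 meningeal fibroblast markers, 8 were not detected on any array, among them Col1a1, Col1a2, Col3a1 and Lum, and the other 3 summed to 342 to 395 on E12.5 arrays, 404 to 499 on E15.5 arrays and 283 to 345 on E18.5 arrays. The second Pdgfra probe (ILMN_2544724) was not detected on any array, with signals of 86.6 to 112.

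Cspg4, a surface proteoglycan of precursors that pericytes also carry, did not pass any test. Signals of its probe (ILMN_2659224) were 95.02, 101, 93.8 and 94.7 at E12.5, 107, 97.5, 98.5 and 105 at E15.5, and 134, 117, 121 and 131 at E18.5. Only E18.5 replicates 1 and 4 were detected, and after normalization the stages overlapped. The fitted difference was 0.27 between E18.5 and E15.5 (95% interval -0.01 to 0.54, limma adjusted p = 0.0907) and 0.33 between E18.5 and E12.5 (0.06 to 0.61, limma adjusted p = 0.0303) on the log2 scale. With median scaling of the arrays, Cspg4 passed in both comparisons, at adjusted p of 0.00853 and 0.00165, and without E18.5 replicate 2 it passed against E12.5, at 0.00724.

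Mbp (chr18:82475091-82585637), myelin basic protein, was detected on all 12 arrays by 1 of its 5 probes and was lowest at E15.5. Signals of this probe (ILMN_3011353) were 219, 236, 248 and 237 at E12.5, 182, 184, 187 and 244 at E15.5, and 365, 382, 354 and 387 at E18.5. After normalization the 3 stages did not overlap, with log2 values of 7.63 to 7.76 on E12.5 arrays, 7.05 to 7.34 on E15.5 arrays and 7.89 to 8.14 on E18.5 arrays. Relative to E12.5, Mbp at E15.5 fell by 0.56 on the log2 scale (SE 0.09, limma adjusted p = 0.00014) and relative to E15.5 it rose by 0.86 at E18.5 (SE 0.09, limma adjusted p = 3.10e-06). Each of these changes is under 2-fold, at 1.47-fold and 1.81-fold. The difference between the intervals was 1.42 (SE 0.15, limma adjusted p = 2.94e-05). E18.5 exceeded E12.5 by 0.30 (SE 0.09, limma adjusted p = 0.00793), an adjusted p that passed under 13 of 26 alternatives. The pass was lost in 7 of 12 fits that left out 1 array, in which the adjusted p reached 0.0282 (without E12.5 replicate 1, 2 or 4, E15.5 replicate 3, or E18.5 replicate 1, 3 or 4).

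A second Mbp probe (ILMN_2737200) was detected on the 4 E18.5 arrays and on no earlier one. It read 107, 108, 109 and 94.5 at E12.5, 107, 95.6, 95.4 and 116 at E15.5, and 154, 155, 132 and 151 at E18.5. E18.5 lay above both earlier stages without overlap, by at least 1.199-fold over E15.5 (limma adjusted p = 0.00227). The comparison with E12.5 did not pass (limma adjusted p = 0.0224). This probe entered the tests only through E18.5 arrays, so the filter favored a rise and its result is a description only. The other 3 Mbp probes were not detected on any array, with signals of 68.3 to 108. The 5 probes thus differ in whether they gave a signal, and which Mbp transcripts each one reads was not examined here.

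**Figure D2:**
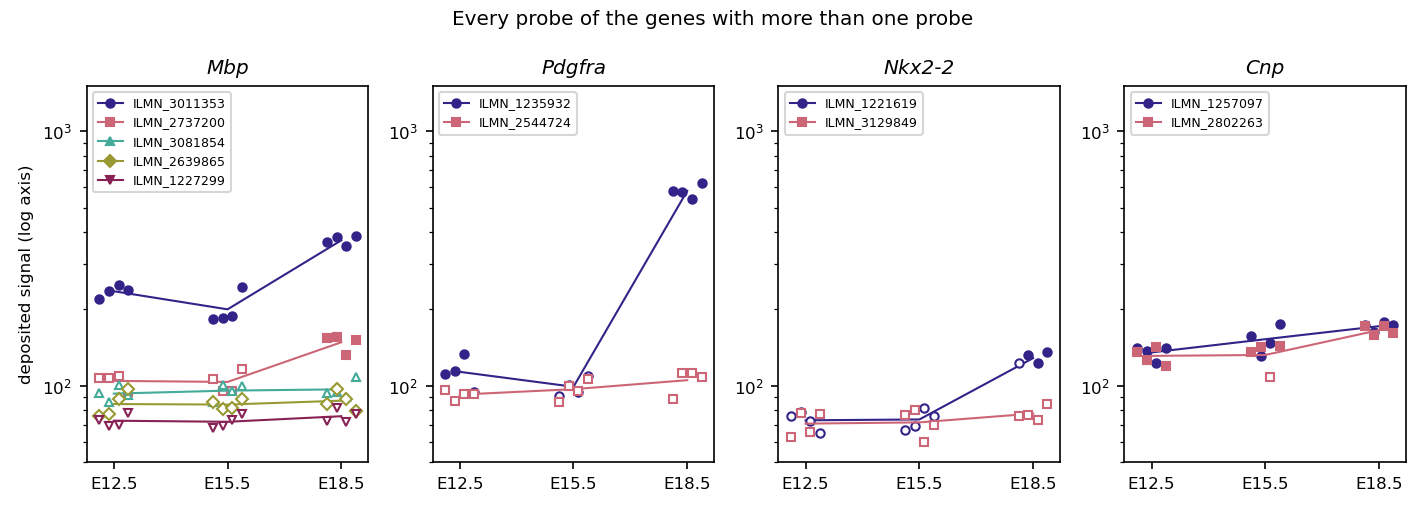
Deposited signal (log axis) of every probe of the 4 genes with more than 1 probe at the 3 stages, before normalization; lines join the means of 4 arrays, and open points were not detected. One Mbp probe reads 182 to 387 on every array and a second is detected only at E18.5, while the second probes of Pdgfra and Nkx2-2 stay undetected on all 12 arrays.

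Cnp, an enzyme of the inner myelin membrane, passed no test with either probe. The probe of higher mean (ILMN_1257097) read 140.5, 137, 122 and 140.1 at E12.5, 157, 130.5, 147 and 174 at E15.5, and 173, 162, 177 and 173 at E18.5. The E18.5 signals lay at or near the top of the range, as did the median signals of the E18.5 arrays, and after normalization the stages overlapped at 6.11 to 6.69, 6.20 to 6.71 and 6.13 to 6.55 in order of age. E18.5 differed from E12.5 by -0.05 on the log2 scale (95% interval -0.36 to 0.27, limma adjusted p = 0.784), and the other 2 comparisons gave adjusted p of 0.687 and 0.508. The second probe (ILMN_2802263) was detected on 11 arrays and differed by -0.04 over the same span (95% interval -0.41 to 0.34, limma adjusted p = 0.85).

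Set together, 5 of the 7 genes passed the test for a change that differs between the 2 intervals. Among these 5, Olig2 and Nkx2-2 entered the tests only through E18.5 arrays, where they were highest. The filter thus favored a rise for them, and their part in the counts below is a description only. With detection required on at least 4 arrays they were not tested, and 3 genes passed. Calls required at least a 2-fold change besides an adjusted p under 0.01. For E15.5 against E12.5, 1 of the 7 was called higher (Olig1), where 6.76% of all tested probes were, and 0 were called lower (5.29% of probes). For E18.5 against E15.5, 3 were called higher (Olig1, Pdgfra and Nkx2-2, beside 6.98% of probes), and the same 3 for E18.5 against E12.5 (15.3%). None of the 7 was called lower in these comparisons, where 4.87% and 13.0% of probes were. With no minimum fold, 5 of 7 passed as higher in each of these 2 comparisons, which adds Olig2 and Mbp (19.9% of probes for E18.5 against E15.5 and 30.0% for E18.5 against E12.5), and 0 passed as lower (21.3% and 33.3%). In the first interval 1 passed as higher (21.7%) and 2 as lower (21.6%), Pdgfra and Mbp. The 5 genes that changed differently between the intervals all did so in the direction of a larger rise after E15.5 (8.80% of tested probes passed in that direction and 8.96% in the other). Counted by overlap alone, all E18.5 arrays lay above all E15.5 arrays for 5 genes (25.2% of probes) and above all E12.5 arrays for the same number (30.8%), with 0 genes wholly below (28.2% and 34.6%). At E15.5, 1 gene lay wholly above E12.5 (25.1%) and 1, Mbp, wholly below (24.3%). The median log2 fold change of the 7 genes was -0.01, 0.86 and 0.80 for E15.5 against E12.5, E18.5 against E15.5 and E18.5 against E12.5, beside -0.01, -0.06 and -0.07 over all tested genes.

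**Figure D3:**
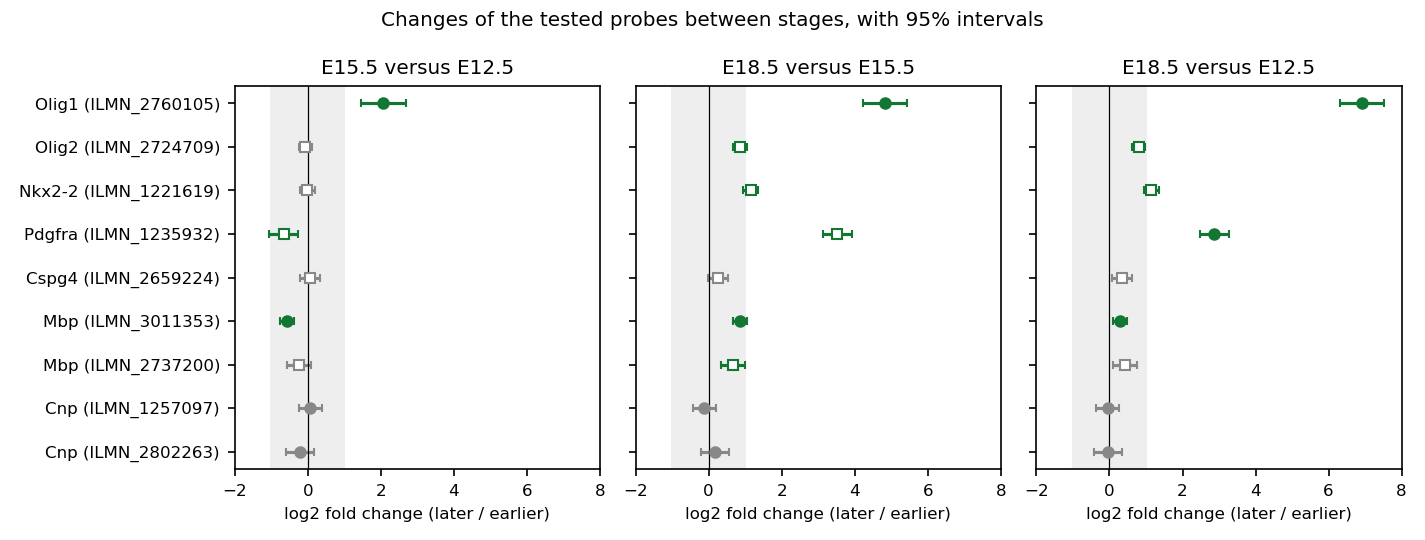
Log2 fold change of the later over the earlier stage, with its 95% interval, for the 9 tested probes in 3 comparisons; green marks an adjusted p under 0.01, circles are measured changes, open squares are fitted values of probes not detected at 1 or both stages, and the shaded band is under 2-fold. Olig1 lies at 2.07, 4.84 and 6.91, and both Cnp probes cross 0 in every panel.

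Across the 12 arrays, Pdgfra and Nkx2-2 were the most alike pair (Pearson's r = 0.963), followed by Olig2 with Pdgfra (0.944) and Olig2 with Nkx2-2 (0.938). Olig1 and its neighbor Olig2 had an r of 0.909, Mbp correlated with Pdgfra at 0.854 and with Olig1 at 0.519, and Cnp with Olig1 at -0.19. These are descriptions over arrays that share their stages, and Nkx2-2 was detected on 3 and Olig2 on 1 of the 12, so that their values rest mainly on signals near background. Among 10344 other genes, the profile nearest to that of Olig1 was Akap7, an anchoring protein for protein kinase A (r = 0.999), before Rprml, Paqr9, Grm7 and Tafa2 (0.997 to 0.998). The nearest to Pdgfra were Sertm1 and Pdgfa, the gene of its ligand (r = 0.988 each). Pdgfa was 10.05 ± 0.24 at E12.5, 9.66 ± 0.11 at E15.5 and 11.02 ± 0.08 at E18.5 on the log2 scale (SD, n = 4 arrays each). Pdgfa was picked for its likeness to Pdgfra, so these levels are a description only. Tmeff2 was nearest to Olig2 (0.981), Shroom2 to Nkx2-2 (0.989), Ppig to Mbp (0.980), Mknk1 to Cspg4 (0.848) and Trim36 to Cnp (0.912).

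Other transcription factors of the lineage moved in both directions. Of 16 listed, 9 were tested, and for E18.5 against E12.5, 3 passed as higher and 6 as lower (30.0% and 33.3% of tested probes). For E15.5 against E12.5, 3 passed each way (21.7% and 21.6%), and for E18.5 against E15.5, 1 as higher and 6 as lower (19.9% and 21.3%). Sox10, which activates myelin genes, had signals of 77.0, 82.2, 73.9 and 69.2 at E12.5, 78.5, 93.9, 83.8 and 88.9 at E15.5, and 339, 335, 293 and 377 at E18.5. It was thus detected on the 4 E18.5 arrays alone, at a level at least 4.04-fold above E15.5 (limma adjusted p = 1.80e-09). Sox10 entered the tests only through these arrays, so the filter favored a rise. Its p-value and its part in the counts are a description only. Without background correction its log2 difference was 1.72. In contrast, Sox9, a glial determinant that progenitors already carry, fell by 1.92 at E18.5 relative to E12.5, in log2 units (SE 0.12, limma adjusted p = 5.34e-09). Tcf7l2, a Wnt effector, fell by 1.87 (SE 0.12, limma adjusted p = 1.13e-08) and Prrx1 was at least 2.04-fold lower at E18.5 (limma adjusted p = 4.67e-06). Without background correction Prrx1 fell by 0.76, less than 2-fold, and with an offset of 50 by 0.97. The others that passed for that pair of stages were Sox8 and Sox5 as higher, and Myt1, Zfp536 and St18 as lower. Myrf, the master regulator of myelin genes, was not detected on any array, nor were Sox6, Nkx6-1, Nkx6-2, Olig3 and Zfp488. The median log2 fold change of the 9 was -0.67 over the whole span, against -0.07 for all tested genes.

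Of 26 listed genes known from oligodendrocyte precursors, 20 were tested, and 14 passed as higher and 3 as lower for E18.5 against E12.5 (30.0% and 33.3% of tested probes), with a median log2 fold change of 1.07. For E15.5 against E12.5 the counts were 10 and 3 (21.7% and 21.6%), and for E18.5 against E15.5 they were 8 and 2 (19.9% and 21.3%). Gpr17, Lhfpl3, Matn4 and S100a1 entered the tests only through E18.5 arrays, so the filter favored a rise for them. Their p-values and their part in the counts are a description only. Gpr17, a receptor of cells about to differentiate, was at E18.5 at least 1.95-fold above E15.5 (limma adjusted p = 4.18e-09) and was detected on no array of the earlier stages. The largest changes belonged to genes that neurons or other glia also express. Gria3, an AMPA receptor subunit, was higher by 3.44 at E18.5 than at E12.5 (SE 0.39, limma adjusted p = 2.27e-06), Bcan, a proteoglycan of the brain matrix, by 3.12 (SE 0.40, limma adjusted p = 8.36e-06) and Cacng5, an AMPA receptor auxiliary subunit, by 2.90 (SE 0.23, limma adjusted p = 7.18e-08). All 3 also passed for E15.5 against E12.5. Of the E12.5 arrays, replicate 4 held the highest value of each, which for Gria3 was 8.07, with 5.67 to 6.14 on replicates 1 to 3. Without it, Gria3 was higher by 3.98 over the whole span. Bcan and Cacng5 were not detected on replicates 1 to 3. The sizes depend on the processing, with 2.67 for Gria3, 2.06 for Bcan and 1.72 for Cacng5 without background correction, and 1.64, 2.38 and 2.15 with probes averaged per gene. Sapcd2, which acts in dividing cells, fell by 2.83 over the whole span (SE 0.12, limma adjusted p = 2.87e-10).

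The myelin genes beyond Mbp and Cnp were largely undetected. Of 29 listed, 25 had a probe and 12 were tested. The other 13 were not detected on any of the 12 arrays, among them Mag, Mog and Mobp, which encode major myelin proteins, Mal, Opalin and Enpp6. For E18.5 against E12.5, 4 of the 12 passed as higher and 4 as lower, shares near those of all tested probes (30.0% and 33.3%), with a median of 0.05 on the log2 scale. The counts were 3 and 4 for E15.5 against E12.5 (21.7% and 21.6%), and 2 and 3 for E18.5 against E15.5 (19.9% and 21.3%). Bcas1, a marker of early myelinating oligodendrocytes, rose by 1.19 (SE 0.16, limma adjusted p = 1.57e-05), a change under 2-fold without background correction (0.71). Cntn2, an adhesion molecule of axons and glia, was higher by 2.26 (SE 0.37, limma adjusted p = 9.72e-05). It reached 10.88 on E12.5 replicate 4 and 8.61 to 8.93 on the other E12.5 arrays, and without replicate 4 it was higher by 2.79. Tmem98, a membrane protein that binds Myrf, fell by 1.60 (SE 0.10, limma adjusted p = 4.97e-09), and Cldn11, a tight junction protein of myelin and of meningeal cells, was at least 1.44-fold lower at E18.5 (limma adjusted p = 8.41e-05). Cldn11 was under the 2-fold minimum without background correction, where it fell by 0.57, with an offset of 50, where it fell by 0.71, and without E12.5 replicate 3, where it fell by 0.97.

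Among the signals and receptors that act on the lineage, 20 of 28 were tested, and 8 passed as higher and 9 as lower for E18.5 against E12.5 (30.0% and 33.3% of tested probes). In the first interval 5 passed as higher and 8 as lower (21.7% and 21.6%), and in the second 6 and 7 (19.9% and 21.3%). Egfr, a receptor of dividing glial progenitors, was detected only at E18.5, as was Sox10. Its signals were 77.1, 79.0, 82.0 and 88.7 at E12.5, 79.9, 85.0, 88.5 and 88.0 at E15.5, and 427, 453, 457 and 469 at E18.5, which is at least 5.80-fold above E15.5 (limma adjusted p = 1.48e-10). The log2 difference of Egfr was 2.15 without background correction. Egfr entered the tests only through E18.5 arrays, so the filter favored a rise. Its p-value and its part in the counts are a description only. Among mediators of Hedgehog signaling, Gli3 fell by 3.55 at E18.5 relative to E12.5 (SE 0.10, limma adjusted p = 2.23e-11), Smo by 2.82 (SE 0.13, limma adjusted p = 3.84e-10) and Gli2 by 2.56, while Ptch1 passed as higher, by 0.65 on the log2 scale. Shh and Gli1 were not detected on any array. Fgfr3 fell by 2.66 (SE 0.15, limma adjusted p = 2.19e-09). With probes averaged per gene, Gli3 fell by 2.78 and Fgfr3 by 1.82. Of the ligands, for the same comparison, Pdgfb was higher and Pdgfc lower, and Bmp4, which steers precursors toward astrocytes, was at least 2.51-fold lower.

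All 12 listed inhibitors of oligodendrocyte differentiation were tested, and for E18.5 against E12.5, 4 passed as higher and 6 as lower (30.0% and 33.3% of tested probes). The counts were 4 and 7 in the first interval (21.7% and 21.6%) and 1 and 5 in the second (19.9% and 21.3%). The Notch effectors Hes1 and Hes5 fell, by 3.08 (SE 0.13, limma adjusted p = 2.06e-10) and by 2.10 (SE 0.11, limma adjusted p = 1.82e-09) on the log2 scale, as did Notch1, by 1.93. Id4 fell by 3.85 (SE 0.12, limma adjusted p = 3.84e-11), whereas its relative Id2 was higher by 2.41 (SE 0.34, limma adjusted p = 2.17e-05). Id2 was 10.41 on E12.5 replicate 4 and 8.52 to 8.96 on the other E12.5 arrays. With 1 array left out, its rise was 2.20 to 2.84. Lingo1, an inhibitor of myelination that neurons express, was higher by 3.47 (SE 0.23, limma adjusted p = 1.17e-08), and by 2.30 without background correction. At E12.5 Lingo1 was detected on replicate 4 alone, at 6.11, with 4.85 to 5.38 on replicates 1 to 3. The inhibitors therefore moved in both directions, with a median of -0.84.

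**Figure D4:**
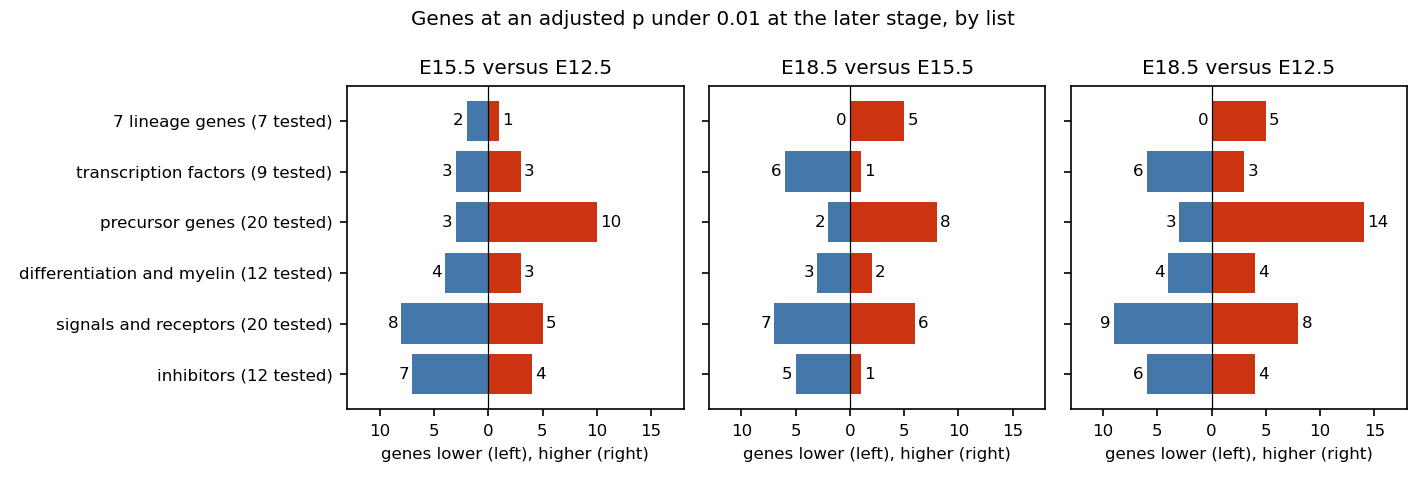
Number of tested genes that were lower (blue, left) or higher (red, right) at the later stage (adjusted p under 0.01, any fold) for the 7 lineage genes and 5 lists of related genes. For E18.5 against E12.5 the counts higher and lower are 5 and 0 for the lineage genes, 14 and 3 for precursor genes, and 3 and 6 for transcription factors. The counts include genes that entered the tests only through E18.5 arrays, for which the filter favored a rise.

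Markers of other cell types also moved with stage. The ventral telencephalon, from which early precursors and interneurons reach the cortex, was represented by 14 markers, 9 of them tested. Their summed normalized signal was 703 to 787 on E12.5 replicates 1 to 3 and 1433 on E12.5 replicate 4. It was 2117 to 3120.1 on E15.5 arrays and 5576 to 6378 on E18.5 arrays. The number detected was 1 on each of E12.5 replicates 1 to 3 and 7 on replicate 4, the single E12.5 array on which Olig1 was detected. For E18.5 against E12.5, 7 of these 9 passed as higher and 1 as lower (30.0% and 33.3% of tested probes). Dlx1, Dlx2, Gad1, Gad2 and Sst were among the 7. Gsx1 and Gsx2, which define ventral progenitors, and Dlx5 and Dlx6 were not detected on any array. On E12.5 replicate 4 the cortical sum was also the highest of that stage, at 11081 against 7074 to 7961. The pericyte sum was the lowest, at 986 against 1004 to 1424. The part of ventral telencephalon cells and interneurons in the rise of Olig1 was not tested.

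Astrocyte markers, 9 tested of 12, summed to 11090.0 to 11449 on E12.5 arrays, 10984 to 12261 on E15.5 arrays and 9302 to 10334 on E18.5 arrays. The mean log2 value of the same 9 went the other way. It was 7.34 to 7.57 on E12.5 arrays, 7.77 to 8.055 on E15.5 arrays and 8.58 to 8.77 on E18.5 arrays. All 9 were detected on each E18.5 array, against 4 or 5 per E12.5 array. For E18.5 against E12.5, 7 passed as higher and 2 as lower. Over all tested probes, 30.0% passed as higher and 33.3% as lower, the shares to set beside each count in this paragraph. Gfap and Aqp4, markers of mature astrocytes, were detected only at E18.5, by at least 3.10-fold and at least 1.27-fold over E15.5. The filter thus favored a rise for both, and their part in the count is a description only. Of 7 tested pericyte markers, 5 passed as higher and 1 as lower for E18.5 against E12.5, and of 8 tested endothelial markers 6 passed as higher, with sums of 748 to 981 on E12.5 arrays, 1758 to 1941 on E15.5 arrays and 3198 to 3545 on E18.5 arrays. Of 9 tested microglial markers 4 were higher, with sums of 511 to 611 on E12.5 arrays, 759 to 884 on E15.5 arrays and 801 to 856 on E18.5 arrays, and of 3 meningeal markers 0 passed. Cortical markers passed as higher for 4 and as lower for 4 of 8. The part of these cells in the values of Olig2, Nkx2-2, Pdgfra and Mbp was not tested.

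**Figure D5:**
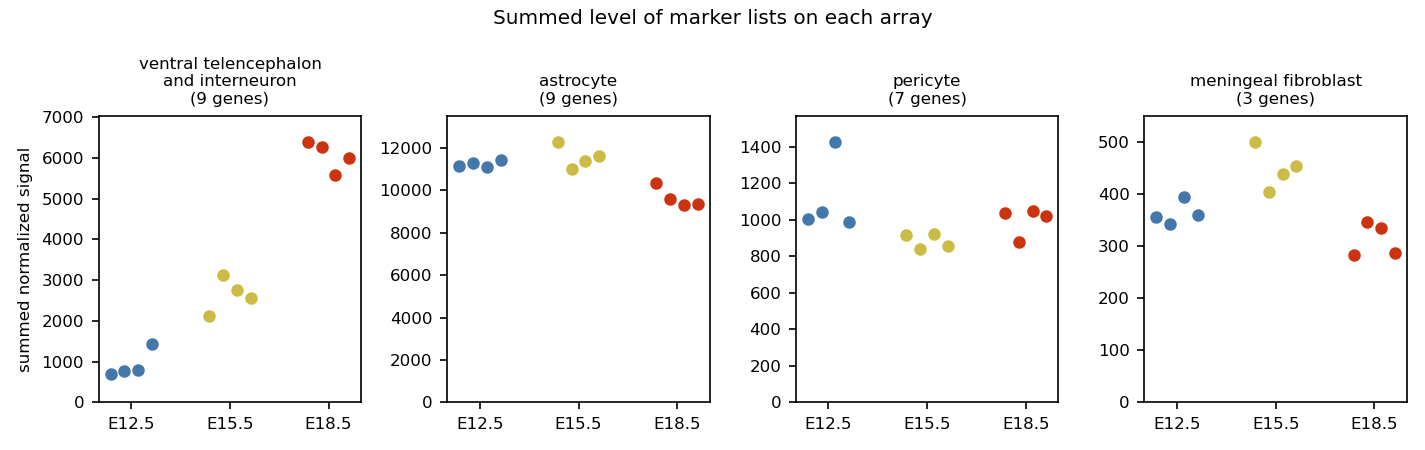
Summed normalized signal of the tested genes of 4 marker lists on each of the 12 arrays, by stage, on axes that start at 0; points of a stage are replicates 1 to 4 from left to right. Ventral telencephalon and interneuron markers reach 1433 on E12.5 replicate 4 and 703 to 787 on the other E12.5 arrays. The pericyte sum is highest on E12.5 replicate 3. At E12.5 it is carried by Notch3, and the mean log2 value of the same markers is lowest at that stage.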

How the data were processed

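The authors deposited, for each of 12 arrays (4 per stage), the signal of 45281 probes, a mean bead intensity on a linear scale that is not normalized between arrays, and a detection p-value per probe. The authors' processed log2 values, used here as an alternative, are those signals after a log2 transform and quantile normalization alone, to within 5.00e-09. Processing notes of the submitters list lumi, whose version is not given in the sources used here. No slide, scan or batch is given.

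Probes were named from the platform annotation. For the results given here, neqc of limma 3.58.1 in R 4.3.3 corrected the background, which it estimated from the detection p-values, added an offset of 16, and normalized by quantiles on the log2 scale. A probe entered the linear model if at least 1 array detected it (detection p-value under 0.01). A probe detected at 1 stage only entered through that stage, and the filter favored a high value there. Its p-values and its part in counts are a description only. The model had 1 term per stage and moderated variances, and p-values were adjusted by Benjamini-Hochberg over all 19652 tested probes within each comparison. The fit was tested on simulated data. Calls required an adjusted p under 0.01 and at least 2-fold, and for the difference between the intervals the adjusted p alone. Precision is limited by the number of arrays. Where a stage did not detect a probe, its value there is only a bound. A gene stands for its tested probe with the highest mean.

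The 7 genes and the 12 lists, with 188 gene names of which 177 had a probe and 126 were tested, were chosen with earlier results of these data known. The other 11 were not analyzed here. Named from each of the 5 lists of lineage genes are up to 4 called genes with the largest changes and others that complete a count or a pathway, which were chosen after their values were seen. The nearest profiles are those with the highest Pearson's r over the 12 arrays. Alternatives covered background correction, scaling, filters, thresholds, variance models, a block for the replicate number, an unpaired t-test and the omission of each array.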

Additional observations from a re-analysis of the deposited data

Results flagged for a closer look

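Among 87 sets of 4 arrays (29 probes at 3 stages), 7 held a value far from the other 3 by Dixon's test, which flags about 1 set in 20 by chance. Of these, 5 lay on E12.5 replicate 4. Olig1 was 5.94 there on the log2 scale, with the other E12.5 arrays at 4.87 to 4.99, and the second Mbp probe (ILMN_2737200) was 5.25, with the others at 5.72 to 5.79. Cacng5 was 5.87 (others 4.57 to 4.72), Cntn2 was 10.88 (others 8.61 to 8.93) and Gli3 was 11.92 (others 12.22 to 12.23). Nkx2-2 was 5.91 on E18.5 replicate 4, with the other E18.5 arrays at 5.59 to 5.64. Id4 was 11.1 on E15.5 replicate 1, with the other E15.5 arrays at 10.78 to 10.79. The summed signal of ventral telencephalon and interneuron markers was 1433 on E12.5 replicate 4, with 703 to 787 on the other E12.5 arrays. Other lists shifted there too. Cortical markers summed to 11081 (others 7074 to 7961) and endothelial markers to 981 (others 748 to 765). Signals to the lineage were lower, at 12305 (others 14683 to 14978). The part of these shifts in the flagged values was not tested.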

How the results depend on the processing

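The number of genes called was 1, 3 and 3 of 7 for E15.5 against E12.5, E18.5 against E15.5 and E18.5 against E12.5, and 5 changed differently between the intervals. Leaving out each array in turn gave 1, 3 and 3, and 4 to 5, the lower value without E18.5 replicate 2, when Olig2 was not tested. With no minimum fold the counts were 3, 5 and 5 at an adjusted p under 0.01 and 3, 5 and 6 under 0.05. An unpaired t-test, which the study's methods list but do not name for the arrays, gave 3, 5 and 6 at p under 0.05. After Benjamini-Hochberg it gave 2, 5 and 5. Requiring detection on at least 4 arrays left 3 genes that differed between the intervals, since Olig2, Nkx2-2 and Cspg4 were then not tested. Without background correction, with the authors' values or with an offset of 50, Nkx2-2 fell under 2-fold, which left 2 called in both E18.5 comparisons. Over all probes, 1143, 1181 and 3462 were called without background correction or with the authors' values, 1473, 1497 and 4068 with the offset of 50, and 2369, 2328 and 5550 with the settings of the report. Without E15.5 replicate 3, 2317 probes differed between the intervals, against 3490. Median scaling moved the median of all probes for E18.5 against E12.5 to 0.13, against -0.07, and took Mbp past 2-fold for E18.5 against E15.5 (1.003).

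Directions turned only where no test passed. Cnp gave 0.082 (median scaling) and 0.027 (probes averaged) for E18.5 against E15.5, 0.27 (median scaling) and 0.064 (cyclic loess) for E18.5 against E12.5, and -0.070 for E15.5 against E12.5 and 0.10 for the difference between the intervals (probes averaged). With 1 array left out, the range was -0.16 to 0.048 for Cnp in E18.5 against E12.5, -0.042 to 0.19 for Cnp, -0.066 to 0.026 for Nkx2-2 and -0.026 to 0.13 for Cspg4 in E15.5 against E12.5. The cause was not tested.

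The deviations of 12 same-numbered pairs of arrays correlated at -0.33 to 0.27, and 3 were over 0.1. So few pairs cannot settle whether arrays of the same replicate number share a batch. With the replicate number as a block, the counts stayed at 1, 3, 3 and 5, and the adjusted p was 0.0209 for Pdgfra in E15.5 against E12.5 and 0.0136 for Mbp in E18.5 against E12.5. Leaving out E12.5 replicate 4 and E15.5 replicate 4 together, chosen after seeing the data, also gave 1, 3, 3 and 5.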
